A study of Mus musculus with 6 samples.

Results

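The classical cadherins described here are 9 genes of the mouse: the type I cadherin genes Cdh1, Cdh2, Cdh3 and Cdh4, the type II cadherin genes Cdh6, Cdh8, Cdh10 and Cdh11, and Cdh13, whose protein is held in the membrane by a lipid anchor. Every probe set that the platform annotation assigns to exactly 1 of these genes was taken, which gave 23 probe sets of the 45037 in the table, and 9 genes of the 18193 that the probe sets name. No probe set names a member together with another gene. The genes were picked with the difference between the tissues already known, so the differences of the members are given as a description and without a p-value. The mice were of the C3H strain, wild type and at postnatal day 2, and each tissue was read on 3 Affymetrix short-oligonucleotide arrays: the vestibular sensory epithelia (saccule and utricle together with 2 of the cristae, the lateral and the anterior) and the cochlear sensory epithelium. Tissue from several inner ears was pooled for each array, and the underlying mesenchyme and attached neurons were kept, so an array read a mixture of cell types. In such bulk tissue, fewer cells of a type and less RNA per cell cannot be told apart. Neither group carried a treatment or a mutation. Which pool an array read is not given in the labels, so the spread behind a p-value may in part be that of repeat measurement.

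Classical cadherins are calcium-dependent adhesion proteins that bind a like molecule on the next cell through their outermost extracellular domain. Inside the cell the tail of a type I or type II cadherin binds beta-catenin and p120 catenin, and alpha-catenin joins this complex to actin at the adherens junction. Cells that carry different cadherins tend to sort apart, and in the cochlea E-cadherin (Cdh1) is known from the region of the outer hair cells and N-cadherin (Cdh2) from that of the inner hair cells.

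Expression is given as the log2 value that the authors computed by the robust multiarray average (RMA), deposited with 1 decimal. Values over all arrays ran between 2.8 and 15, the median of an array was 5.6 or 5.7 and its first quartile 4.2 or 4.3. Arrays of the vestibule correlated at 0.993 with each other, those of the cochlea at 0.980 to 0.988, and arrays of different tissues at 0.945 to 0.961. Probe sets with a mean of at least 4.7 over the 6 arrays entered the limma fit, and a probe set was called at a Benjamini-Hochberg adjusted p under 0.1 with a fold of at least 1.3. Each difference is the vestibular mean minus the cochlear mean of these log2 values.

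Cdh6 was the member that differed most, and it was higher in the cochlea. Cdh10, a relative of Cdh6 among the type II cadherins, was also higher in the cochlea, and so were Cdh1 and 1 of 2 tested probe sets of Cdh4 by smaller amounts. Cdh11 was higher in the vestibule. Cdh2, Cdh3 and Cdh13 were not called, and Cdh8 read near the low end of the arrays in both tissues. Of the 23 probe sets 14 were tested, from 8 of the 9 genes, and 8 were called. In the whole fit 19.4% of 29554 probe sets were called. Higher in the vestibule were 2 member probe sets, beside 12% of all, and higher in the cochlea were 6, beside 7.38% of all. The arrays of the tissues did not overlap for 10 tested member probe sets, beside 27.5% of all. In 2 of these the vestibule lay above the cochlea (16% of all) and in 8 the cochlea lay above the vestibule (11.5% of all). Probe set 1460538_at of Cdh10, which passed the filter only through the cochlea, is in both cochlear counts. The median difference of the 14 was -0.32, and that of all tested probe sets was 0. Since the members were picked on this contrast, nothing is read from these shares.

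**Figure D1:**
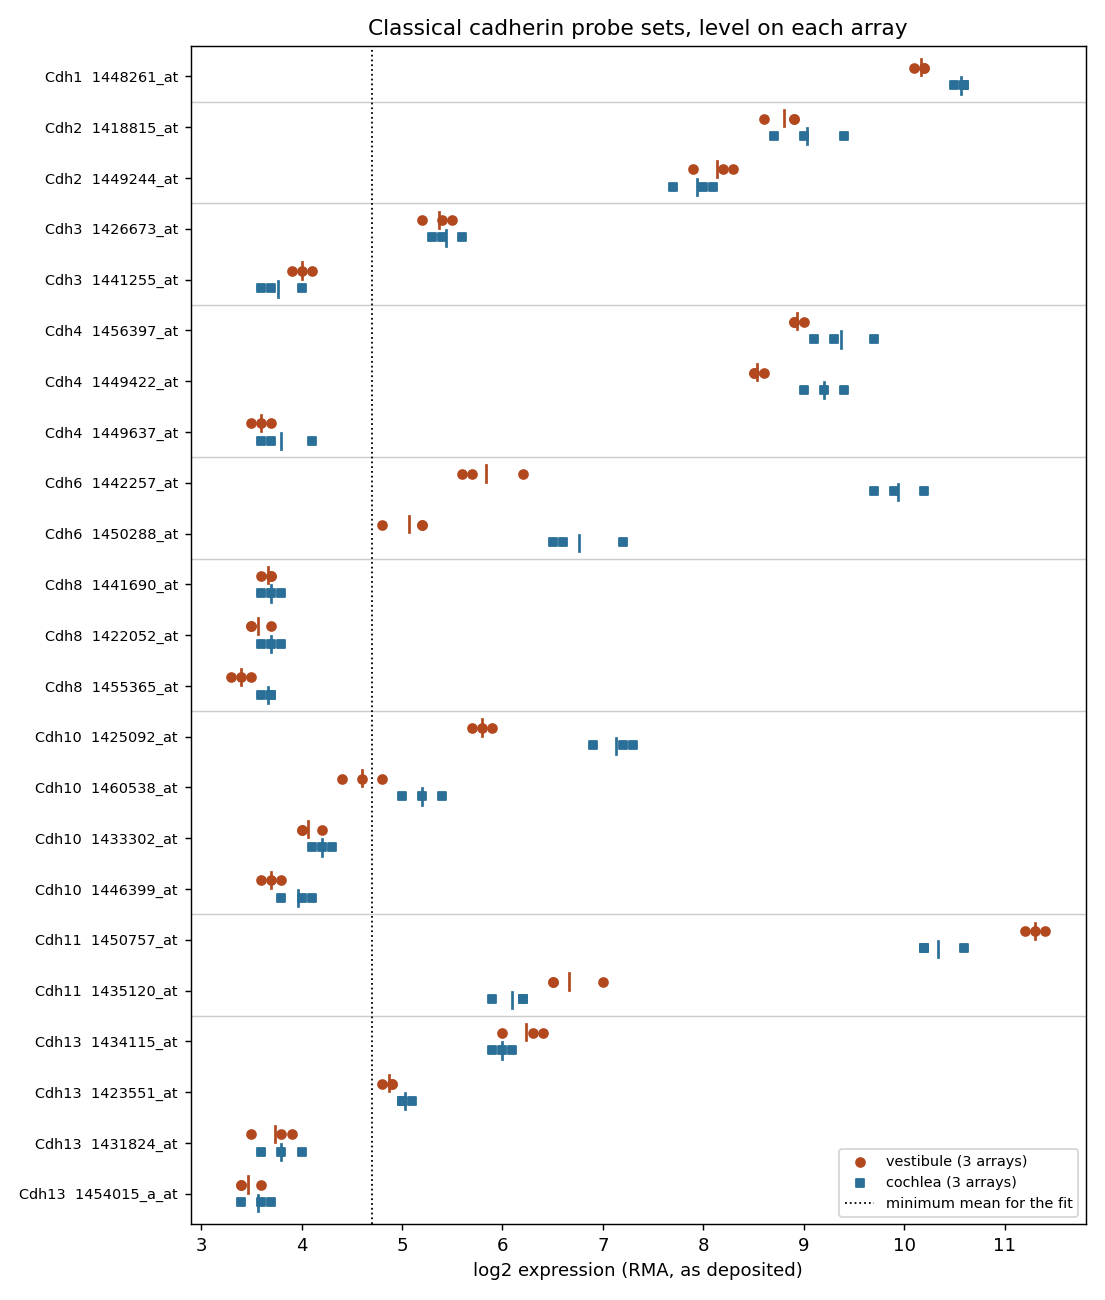
Log2 expression (RMA, horizontal axis) of each of the 23 probe sets, with a point for each of 3 vestibular and 3 cochlear arrays, vertical bars at the means and a dotted line at the mean of 4.7 needed for the fit. The points of both tissues lie far apart for the first probe set of Cdh6 and close together near the left end for the 3 of Cdh8.

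The type I cadherins differed little between the tissues. Cdh1, which encodes E-cadherin of epithelia, was read by 1 probe set (1448261_at). Its log2 level was 10.2, 10.2 and 10.1 on the vestibular arrays, against 10.6, 10.6 and 10.5 on the cochlear arrays. All 3 cochlear arrays lay above the vestibular ones, and within each tissue the arrays were within 0.1 of each other, the resolution of the deposited values. The difference was -0.40 (limma standard error 0.11), a fold of 1.32, just past the minimum of 1.3. Without vestibule replicate 3 the difference was -0.37 and the call was lost.

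Cdh2 encodes N-cadherin of neural and mesenchymal cells, which hair cells also carry, and its probe sets gave opposite signs. Probe set 1418815_at read 8.9, 8.6 and 8.9 in the vestibule, against 9.4, 9.0 and 8.7 in the cochlea. Probe set 1449244_at read 8.3, 7.9 and 8.2 in the vestibule, against 8.0, 8.1 and 7.7 in the cochlea. The tissues overlapped in both, and the differences of -0.23 (standard error 0.18) and 0.20 (standard error 0.15) were of the size of the spread between arrays. The level of N-cadherin mRNA was therefore not separated between the tissues by these probe sets, in either direction.

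Cdh3 encodes P-cadherin, named for the placenta. Its brighter probe set (1426673_at) read 5.2, 5.4 and 5.5 in the vestibule, against 5.4, 5.3 and 5.6 in the cochlea, and the tissues overlapped, with a difference of -0.07 (standard error 0.13). The other (1441255_at) read 3.9, 4.1 and 4.0 in the vestibule, against 3.7, 3.6 and 4.0 in the cochlea, and was below the minimum for the fit.

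Cdh4 encodes R-cadherin, first described in the retina, and was higher in the cochlea at both of its tested probe sets. Probe set 1449422_at read 8.5, 8.6 and 8.5 in the vestibule, against 9.0, 9.4 and 9.2 in the cochlea, and was called. Probe set 1456397_at read 8.9, 8.9 and 9.0 in the vestibule, against 9.3, 9.7 and 9.1 in the cochlea, and was not called. The arrays did not overlap in either, and the cochlear arrays spread more than the vestibular ones. The differences were -0.67 (standard error 0.13), a fold of 1.59, and -0.43 (standard error 0.16), a fold of 1.35. The second was called at -0.57 without cochlea replicate 3. The third probe set of Cdh4 (1449637_at) read 3.60 ± 0.10 in the vestibule and 3.80 ± 0.26 in the cochlea (SD, n = 3 each), below the minimum.

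Among the members, the largest differences at the brightest probe set were those of the type II genes Cdh6, Cdh10 and Cdh11. Cdh8, also of type II, was not tested. Since the members were picked on this contrast, nothing is read from this about the type. Cdh6, called K-cadherin for the kidney and also known from neural crest, was read by 2 probe sets. Probe set 1442257_at read 5.6, 6.2 and 5.7 in the vestibule, against 10.2, 9.9 and 9.7 in the cochlea. The lowest cochlear array stood 3.5 above the highest vestibular one, and the vestibular arrays were near the median of all probe sets. Probe set 1450288_at read 5.2, 5.2 and 4.8 in the vestibule, against 7.2, 6.6 and 6.5 in the cochlea. The tissues were again apart, and the vestibular values were closer to the low end of the arrays. The differences were -4.10 (standard error 0.19) and -1.70 (standard error 0.20), which correspond to folds of 17.1 and 3.25. Both probe sets gave the same direction and differed in size. Their vestibular means were 5.83 and 5.07, and their cochlear means 9.93 and 6.77. Why the sizes differed was not tested. Leaving out any 1 array kept the first between -4.28 and -3.97 and the second between -1.83 and -1.48.

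Cdh10, a type II cadherin of the brain, was read by 4 probe sets. Probe set 1425092_at read 5.8, 5.9 and 5.7 in the vestibule, against 7.2, 6.9 and 7.3 in the cochlea. Probe set 1460538_at read 4.8, 4.4 and 4.6 in the vestibule, against 5.2, 5.0 and 5.4 in the cochlea. Every cochlear array lay above every vestibular one in both. The differences were -1.33 (standard error 0.14), a fold of 2.52, and -0.60 (standard error 0.15), a fold of 1.52. The second of these passed the filter only through the cochlea, its vestibular mean being 4.60, and its call was lost without vestibule replicate 2 (-0.50), vestibule replicate 3 (-0.60) or cochlea replicate 1 (-0.60). The remaining probe sets, 1433302_at and 1446399_at, read 3.6 to 4.3 and were not tested, at differences of -0.13 and -0.27.

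Cdh6 and Cdh10 are close in gene order but not in bases. In the RefSeq annotation of GRCm38.p6 they are on chromosome 15, in a run of type II cadherin genes in the order Cdh6, Cdh9, Cdh10 and Cdh12 with no other protein-coding gene listed between them. Cdh9, which lies between the genes that were higher in the cochlea and is named after its value was seen, read 5.3, 5.4 and 5.6 in the vestibule, against 5.3, 5.3 and 5.8 in the cochlea. The tissues overlapped, and its difference was -0.03 (95% confidence interval -0.40 to 0.34, limma adjusted p = 0.902). Cdh12 was not analysed here. Members that differed and a gene that was not called thus followed each other in gene order. In bases Cdh6 and Cdh10 are far apart, with the windows around their starts beginning at 13173626 and 18820079.

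The sequence around a listed start site was at hand for 3 of the 9 members, Cdh6, Cdh8 and Cdh10, and is shown for Cdh6 and Cdh10, the genes with the largest differences. These 300 bases are from RefSeq on GRCm38.p6 and run 5′ to 3′ on the strand of the gene, with 250 bases before the start and 50 after it, at chr15:13173626-13173925 on the minus strand for Cdh6 and chr15:18820079-18820378 on the plus strand for Cdh10. Capitals mark each E-box, CANNTG, the letters that basic helix-loop-helix factors bind. This motif reads the same on both strands.
Cdh6: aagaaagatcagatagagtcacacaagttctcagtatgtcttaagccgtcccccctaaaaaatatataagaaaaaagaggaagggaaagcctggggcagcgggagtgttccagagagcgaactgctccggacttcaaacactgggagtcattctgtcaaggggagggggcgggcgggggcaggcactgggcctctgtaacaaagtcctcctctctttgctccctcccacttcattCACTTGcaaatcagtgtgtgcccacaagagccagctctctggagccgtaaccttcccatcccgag
Cdh10: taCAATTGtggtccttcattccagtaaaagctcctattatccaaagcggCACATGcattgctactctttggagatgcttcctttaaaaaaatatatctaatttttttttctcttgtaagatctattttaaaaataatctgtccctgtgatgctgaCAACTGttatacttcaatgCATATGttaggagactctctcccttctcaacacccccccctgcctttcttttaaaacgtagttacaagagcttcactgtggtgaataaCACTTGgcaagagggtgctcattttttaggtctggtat

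The Cdh6 window held 1 E-box and that of Cdh10 held 5, and the form CACTTG stood in both. At least 1 E-box stood in 72.3% of the 32851 promoters of this length, and 2.1% held 5 or more. The window of Cdh8, a member read near the low end in both tissues, held 2. Among these was the form shared by Cdh6 and Cdh10, read on the other strand. With both strands counted this form was thus in all 3 windows, and its share of all promoters is not given here. Snail and Zeb factors bind a narrower E-box, the form CAGGTG, which overlaps with CANNTG and was searched on both strands. This narrower form was in none of the 3 windows and in 20.2% of all. The windows also differed in base composition, with 53.0% G and C for Cdh6 and 37.7% for Cdh10. These matches describe letters only, and binding was not measured.

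Cdh11, called OB-cadherin for osteoblasts and known from mesenchyme, was the member higher in the vestibule. Probe set 1450757_at read 11.2, 11.3 and 11.4 in the vestibule, against 10.2, 10.6 and 10.2 in the cochlea. Probe set 1435120_at read 6.5, 7.0 and 6.5 in the vestibule, against 6.2, 6.2 and 5.9 in the cochlea. The vestibular arrays lay above the cochlear ones in both. The differences were 0.97 (standard error 0.14), a fold of 1.95, and 0.57 (standard error 0.17), a fold of 1.48. The first stayed between 0.90 and 1.10 whichever array was left out and kept its call. The second lost its call without vestibule replicate 1 (0.65), 2 (0.40) or 3 (0.65) and without cochlea replicate 1 (0.62) or 3 (0.47).

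Cdh8, a type II cadherin of the brain, had 3 probe sets and none was tested. They read 3.3 to 3.7 in the vestibule and 3.6 to 3.8 in the cochlea, below the first quartile of every array. Probe set 1455365_at read 3.4, 3.5 and 3.3 in the vestibule, against 3.7, 3.7 and 3.6 in the cochlea, without overlap and with a difference of -0.27. The others overlapped, at -0.03 and -0.13. Values this low give no order of expression, and a low level of Cdh8 mRNA was not detectable on these arrays. In the annotation Cdh8 is followed on its chromosome by Cdh11 and then by Cdh5, with no other protein-coding gene listed between them.

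Cdh13 encodes T-cadherin, which lacks the catenin-binding tail and also binds adiponectin. Probe set 1434115_at read 6.0, 6.4 and 6.3 in the vestibule, against 6.0, 5.9 and 6.1 in the cochlea, and 1 vestibular array lay within the cochlear values. Probe set 1423551_at read 4.8, 4.9 and 4.9 in the vestibule, against 5.0, 5.1 and 5.0 in the cochlea, without overlap. The differences were 0.23 (standard error 0.14) and -0.17 (standard error 0.11), of opposite sign, and neither was called. The other probe sets, 1431824_at and 1454015_a_at, read 3.4 to 3.9 in the vestibule and 3.4 to 4.0 in the cochlea and were not tested.

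**Figure D2:**
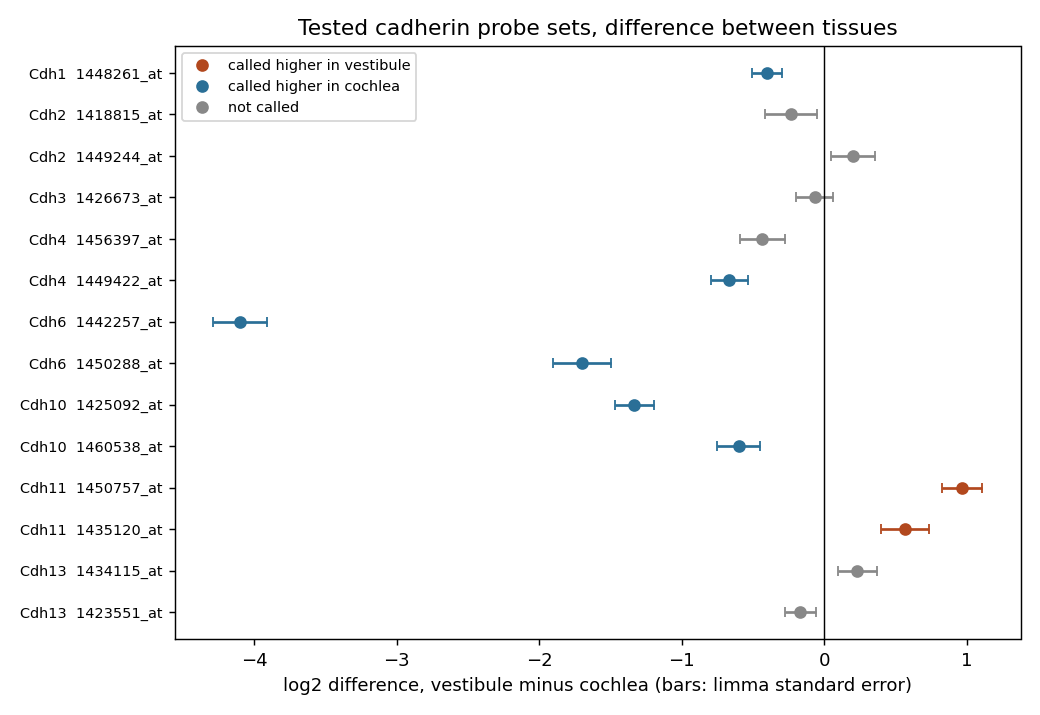
Log2 difference of vestibule minus cochlea (horizontal axis) for the 14 tested probe sets of the members, with bars of 1 limma standard error and colours for the call. The probe sets of Cdh6 lie farthest to the left, at -4.10 and -1.70, and those of Cdh11 farthest to the right, at 0.97 and 0.57.

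Where a gene had 2 tested probe sets, they gave the same sign for Cdh4, Cdh6, Cdh10 and Cdh11 and opposite signs for Cdh2 and Cdh13. For Cdh10 the second, 1460538_at, passed the filter only through the cochlea, so its sign adds no support. The SD over 3 arrays of a tissue reached 0.38 among the members, in the cochlea for probe set 1450288_at of Cdh6. By their brightest probe sets, Cdh11 was called in the vestibule, Cdh1, Cdh6 and Cdh10 in the cochlea, and Cdh2, Cdh3, Cdh4 and Cdh13 were not called.

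The genes whose pattern over the 6 arrays was closest to that of Cdh6 were found by the root mean square difference of log2 values, each centred on its own mean, among 14161 genes at their brightest tested probe set. They were the collagen hydroxylase gene P4ha2 at 0.267, and Fst, which encodes the activin antagonist follistatin, and Pappa2, which encodes a protease of insulin-like growth factor binding proteins, at 0.273 each. For Cdh10 they were Dpysl4, of the collapsin response mediator family, at 0.0898, the zinc finger gene Zfp711 at 0.0943 and the receptor gene Gpr83 at 0.107. This likeness rests on the step between the tissues, which all of these genes share, from -4.40 for P4ha2 to -3.60 for Fst beside Cdh6, and from -1.33 for Zfp711 to -1.23 for Dpysl4 beside Cdh10.

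Among the remaining classical cadherins, those outside the 9 members, 8 of 10 genes had a probe set and 6 were tested. Cdh5, which encodes VE-cadherin of endothelial junctions, was higher in the vestibule. The other 5, most of them of type II like Cdh9, were not called, at differences of -0.27 to 0.13. Cdh5 read 7.3, 7.1 and 6.7 in the vestibule, against 5.1, 5.2 and 5.4 in the cochlea. The arrays were well apart, by 1.80 in the means (standard error 0.17, limma adjusted p = 1.41e-04). For genes at their brightest probe set, 15.1% of 14162 were called for the vestibule and 7.97% for the cochlea. The median difference of the 6 genes was 0.

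Most tested genes of the wider cadherin superfamily were not called, and the largest differences among those called were of protocadherins. Of 38 listed genes 31 were tested, of which 5 were higher in the vestibule, 7 in the cochlea and 19 were not called, with a median of -0.07. These calls are at the brightest probe set. Among the 19, and named after their values were seen, Dsg2 had 2 of 4 tested probe sets called for the vestibule and Fat4 had 1 of 2. Over all genes the shares called were 15.1% for the vestibule and 7.97% for the cochlea, so the count for the vestibule was near that of all genes. Pcdh20, a protocadherin gene, read 10.9, 10.7 and 10.9 in the vestibule, against 7.8, 7.8 and 6.9 in the cochlea. The difference of 3.33 (standard error 0.23, limma adjusted p = 2.92e-05) was the largest of this list towards the vestibule. Ret, a receptor kinase gene with cadherin-like domains, stood at 1.77 (limma adjusted p = 1.76e-04) in its brightest probe set and at 0.20, not called, in another. Dsc2, which encodes a desmosomal cadherin, stood at 1.37 (limma adjusted p = 0.00161; 0.87 as the mean of its probe sets) and the synaptic calsyntenin gene Clstn2 at 1.33 (limma adjusted p = 1.38e-04).

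Pcdh11x, a protocadherin gene of the X chromosome, read 5.1, 5.2 and 4.9 in the vestibule, against 8.1, 7.9 and 8.4 in the cochlea. Its difference was -3.07 (standard error 0.15, limma adjusted p = 4.82e-06), the largest of this list towards the cochlea. Pcdh19, whose protein works together with N-cadherin in zebrafish, stood at -1.53 (limma adjusted p = 2.43e-04), the large cadherin gene Fat3 at -1.13 (limma adjusted p = 0.00113) and Cdhr4 at -0.90 (limma adjusted p = 0.0263). The call of Cdhr4 was lost without vestibule replicate 1 (-0.90, adjusted p = 0.137), 2 (-0.85, 0.134) or 3 (-0.95, 0.109) and without cochlea replicate 1 (-0.90, 0.118) in limma. Cdh23 and Pcdh15 encode the 2 cadherins of the hair cell tip link. Pcdh15 was higher in the vestibule at 1.00 (limma adjusted p = 0.0119). Cdh23 stood at 0.37 (95% confidence interval 0.08 to 0.65, limma adjusted p = 0.0900), under the minimum fold, and it was called at 0.43 without cochlea replicate 1 (adjusted p = 0.0916 in limma).

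**Figure D3:**
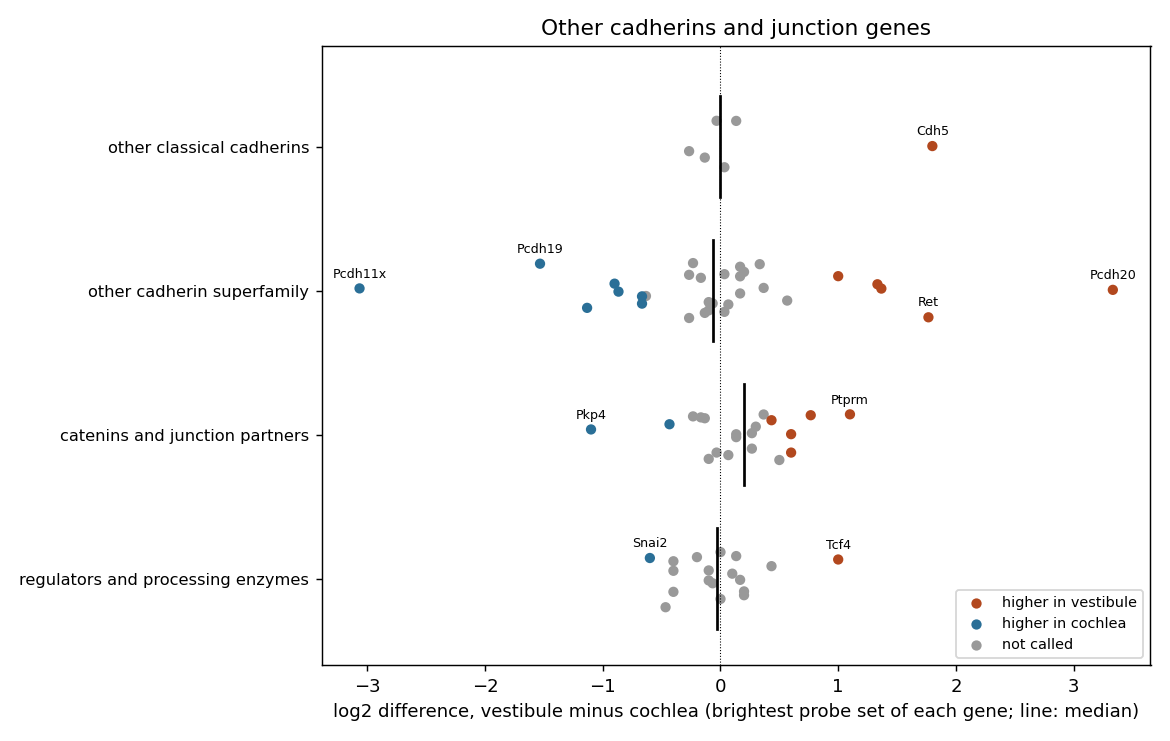
Log2 difference of vestibule minus cochlea (horizontal axis) for the tested genes of 4 lists outside the members, 1 point for each gene at its brightest probe set, coloured by the call, with a line at the median of the list. Cdh5 stands apart at 1.80, and Pcdh20 and Pcdh11x mark the ends at 3.33 and -3.07.

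The core catenins were not called at their brightest probe sets, while some partners of the junction differed. Ctnnb1, which encodes beta-catenin, read 13.60 ± 0.10 in the vestibule and 13.33 ± 0.21 in the cochlea (SD, n = 3 each), a difference of 0.27 (95% confidence interval -0.04 to 0.58). Its 3 tested probe sets ranged up to 1.00 and their mean stood at 0.69, also not called. Ctnna1, which encodes the epithelial alpha-catenin, stood at 0.27 too (0.07 as the mean of its probe sets), and Ctnnd1, which encodes p120 catenin, at 0.50 (95% confidence interval 0.05 to 0.95, limma adjusted p = 0.137). One of 3 tested probe sets of Ctnnd1 was called, and the gene was called at 0.54 when its probe sets were averaged and at 0.80 once the suffixes _x_at and _s_at were left out. Of 20 tested genes 5 were higher in the vestibule, 2 in the cochlea and 13 were not called, with a median of 0.20, beside 15.1% and 7.97% called over all genes in these directions. Towards the vestibule Ptprm, a phosphatase gene of cell contacts, stood at 1.10 (limma adjusted p = 0.00134), the neuronal alpha-catenin gene Ctnna2 at 0.77 (limma adjusted p = 0.00648), and the vinculin gene Vcl and the tight junction gene Tjp1 at 0.60 each (limma adjusted p = 0.00898). Towards the cochlea Pkp4, whose protein belongs to the p120 catenin family, stood at -1.10 (limma adjusted p = 6.24e-04) and the adhesion gene Nectin2 at -0.43 (limma adjusted p = 0.0553). Nectin2 lost its call without vestibule replicate 1 (-0.45), 2 (-0.45) or 3 (-0.40) and without cochlea replicate 1 (-0.33) or 3 (-0.43), with adjusted p-values of 0.118 to 0.185 in limma.

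Of 18 tested regulators of cadherin expression and enzymes that process cadherins, 1 was called for the vestibule and 1 for the cochlea, beside 15.1% and 7.97% of all genes. Tcf4, which encodes an E-box factor, was higher in the vestibule at 1.00 (limma adjusted p = 0.00153), with all 5 of its tested probe sets called. Snai2, which encodes the Snail family repressor Slug, read 8.4, 8.6 and 8.1 in the vestibule, against 9.0, 8.8 and 9.1 in the cochlea. The arrays did not overlap and stood -0.60 apart (standard error 0.15, limma adjusted p = 0.0292). The call of Snai2 was lost without vestibule replicate 1 (-0.62, adjusted p = 0.118) or 3 (-0.47, 0.117) and without cochlea replicate 1 (-0.58, 0.111) or 3 (-0.53, 0.115) in limma. The other 16 were not called at their brightest probe sets, and the median of the list was -0.03. Among them, and named after their values were seen, the repressor gene Zeb2 had 2 of 5 tested probe sets called for the cochlea and the Krüppel-like factor gene Klf4 had 1 of 2.

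Markers of the cell types in these tissues also moved between them, and their part in the differences of the cadherins was not tested. The counts of marker genes called, here and below, stand beside 15.1% of all genes called for the vestibule and 7.97% for the cochlea. Neuronal genes were higher in the cochlea for 9 of 10 tested genes of the list, with a median of -1.35. They were led by Stmn2 at -3.90 (limma adjusted p = 2.28e-05) and Nefh at -2.80 (limma adjusted p = 5.35e-06). Cdh6 and Cdh10 were on the same side, as were Cdh1 and Cdh4 by smaller amounts. So were Fgfr3, Emcn, Lum, Krt19, Fabp7 and Erbb3 of the other marker lists. The summed level of the neuronal genes on the linear scale was 3539 to 3895 in the vestibule and 6836 to 7846 in the cochlea. Of 12 mesenchymal genes 6 were higher in the vestibule, as Cdh11 was, with Col1a1 at 1.87 and Pdgfra at 0.93, and Lum was higher in the cochlea at -0.97. Their summed level was 54939 to 60477 in the vestibule and 36767 to 49923 in the cochlea, and the median was 0.45. Of 5 tested cartilage and bone genes 3 were called for the vestibule, with Ibsp at 4.40 and Acan at 1.3, and their summed level overlapped, at 21431 to 23648 in the vestibule and 17332 to 23318 in the cochlea.

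Cdh1 was higher in the cochlea at -0.40. Of 12 tested epithelial genes, which share their tissue with Cdh1, 5 were called for the vestibule, the opposite side. Among these genes Krt18 stood at 1.40 and Cldn4 at 1.17, while Krt19 was higher in the cochlea at -0.57. Their summed level was 23471 to 26130 in the vestibule and 16371 to 20324 in the cochlea, and bright genes weigh most in such a sum. The median of the list was 0.15, and 6 of the 12 were not called. The call of Krt19 was lost without any of 5 arrays, vestibule replicate 1 (-0.47), 2 (-0.67) or 3 (-0.57) and cochlea replicate 2 (-0.40) or 3 (-0.60). Of 7 endothelial genes tested beside Cdh5, 5 were called for the vestibule, with Kdr at 2.97 and Cldn5 at 1.73, and Emcn was higher in the cochlea at -1.57. Their summed level was 2705 to 3173 in the vestibule and 1492 to 2300 in the cochlea. Of 9 tested hair cell genes 7 were called for the vestibule, with Gfi1 at 3.10 and Lhx3 at 1.83, on the same side as Pcdh15, and their summed level was 6662 to 7849 in the vestibule and 2338 to 2966 in the cochlea.

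Of the supporting cell genes Fgfr3 was higher in the cochlea at -3.57, and S100a1 (1.17) and Gjb6 (1.13) were higher in the vestibule, while 4 of the 7 tested were not called. Their median was -0.17, opposite in sign to the summed level, which was 17344 to 19122 in the vestibule and 10861 to 15035 in the cochlea. The size depended on the probe set, since the mean of probe sets gave -2.28 for Fgfr3, and S100a1 stood at 0.57 without the suffixes _x_at and _s_at, both still called. Schwann cell genes were split, with Mbp at 1.33 and S100b at 1.13 and, towards the cochlea, Fabp7 at -0.63 and Erbb3 at -0.43, and summed to 15727 to 21710 in the vestibule and 12544 to 15239 in the cochlea. Fabp7 lost its call without any 1 of the 6 arrays (-0.80 to -0.43) and Erbb3 without vestibule replicate 2 (-0.35) or 3 (-0.40) or cochlea replicate 1 (-0.38) or 2 (-0.43). All 6 melanocyte genes, with Pmel at 2.27 and Mlana at 1.93, and all 6 macrophage genes, with Cd163 at 2.20 and Csf1r at 1.80, were higher in the vestibule. Their summed levels were 1698 to 2097 and 4254 to 5199 in the vestibule, against 489 to 867 and 1279 to 1536 in the cochlea.

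**Figure D4:**
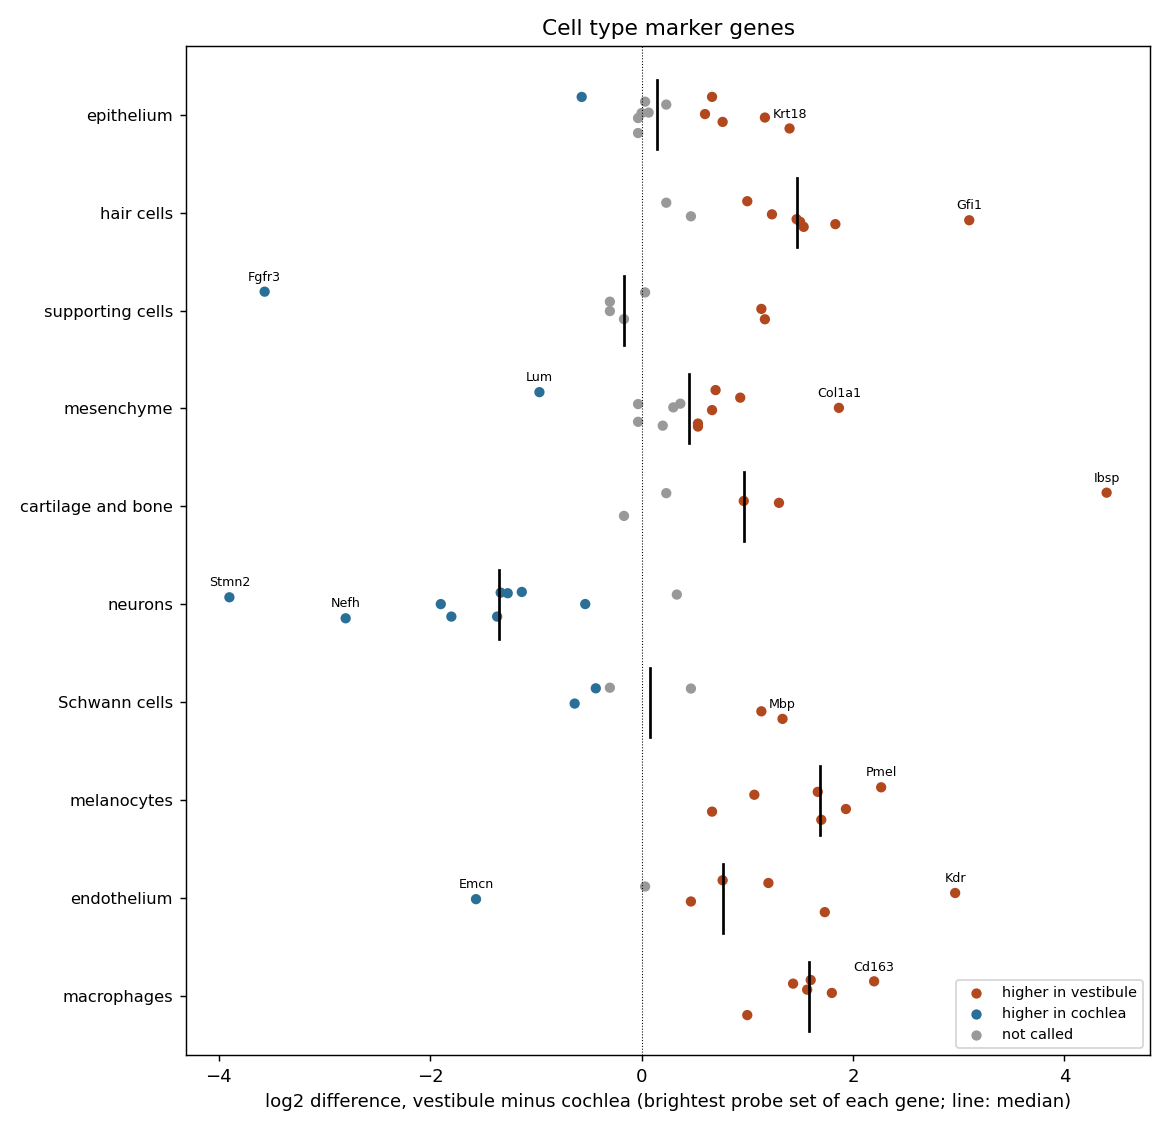
Log2 difference of vestibule minus cochlea (horizontal axis) for the tested genes of 10 cell type marker lists, 1 point for each gene at its brightest probe set, coloured by the call, with a line at the median of the list. Neuronal genes lie to the left, with a median of -1.35, and melanocyte and macrophage genes to the right, with medians of 1.68 and 1.58.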

How the data were processed

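RNA of 3 vestibular and 3 cochlear samples was amplified by the authors with a two-cycle kit and hybridised to Affymetrix mouse arrays. The authors deposited log2 values computed by RMA with quantile normalization, rounded to 1 decimal, and the sources used here give no version of RMA. They were used as deposited. The authors filtered on MAS5 Present calls, which cannot be repeated from these values. Control probe sets (64) were dropped. Those with a mean log2 value of at least 4.7, 29554 in number, entered two-sided tests by lmFit and eBayes of limma 3.58.1 under R 4.3.3, with Benjamini-Hochberg adjustment over all of them. The fit was tested on simulated data. Intervals are at 95%. Symbols were taken from RefSeq through Entrez numbers for 34741 of 34945 probe sets with 1 gene, whether or not the symbol changed. Arrays were checked for copies, and any pair shared equal values in 12.0% to 21.4% of probe sets per pair. Precision is limited by 3 arrays per tissue.

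Members and gene lists were chosen with earlier results of these data known. Named are all members, up to 4 called genes per list and direction, up to 2 per marker list and direction, Cdh23, Pcdh15, Ctnnb1, Ctnnd1 and Ctnna1, and the 3 genes closest in pattern to members that differed by at least 1. A gene stands at its brightest probe set. Summed levels are sums of 2 to the power of the log2 value. Alternatives were 2 other filters, median centring, a second quantile normalization, an intensity trend, array weights, a block on the replicate number, random values of up to 0.05 added to the rounded ones, other thresholds, the mean of probe sets, leaving out suffixes _x_at and _s_at, and leaving out each array. Figures were drawn with matplotlib 3.10.9. The list genes without a probe set of their own are not analysed here.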

Additional observations from a re-analysis of the deposited data

How the results depend on the processing

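All 14 tested member probe sets kept their direction, apart from Cdh3, which was not called and reached 0.02, and 13 of them stayed within 1 SD of the replicates under every alternative run. The exception was Cdh1, at -0.48 after a second quantile normalization. The count of 2 member probe sets higher in the vestibule was 1 at an adjusted p under 0.05, and 1 to 2 with 1 array left out. The count higher in the cochlea was 4 to 7 with 1 array left out, and probe set 1456397_at of Cdh4 was called under 5 alternatives. Over all probe sets with 1 array left out, 2338 to 3893 were called for the vestibule and 1430 to 2771 for the cochlea, the lowest counts being those without vestibule replicate 1. Junction partners higher in the cochlea numbered 2, with 1 at an adjusted p under 0.05 and 1 to 2 with 1 array left out. Regulators higher in the cochlea numbered 1, with 2 without a filter, 3 after a second quantile normalization, 4 with array weights, 3 with the mean of probe sets, 0 without suffixes _x_at and _s_at and 0 to 3 with 1 array left out; those higher in the vestibule numbered 2 with array weights and 1 to 2 with 1 array left out. Of the other classical cadherins 0 to 1 were higher in the cochlea with 1 array left out. The cause of these shifts was not tested.

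Arrays of the same replicate number deviated together at correlations of 0.218, 0.153 and -0.0004. Those of different numbers stood at -0.225 to 0.0292, so these values do not settle whether replicates were paired. The labels do not state pairs, and the numbers were not taken as pairs in the main fit. With the replicate number as a block, the member probe sets called numbered 2 for the vestibule and 6 for the cochlea, 1 junction partner and 0 regulators were higher in the cochlea (Nectin2 and Snai2 lost their calls), and no member changed its call. Depth does not apply to arrays; signal near the low end limits Cdh8 and 6 further member probe sets that were not tested. The mean of probe sets gives no value for counts of probe sets, and the stricter filter none for members with a mean under 6.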
